A study of Mus musculus with 26 samples.

Results

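Gdf3, Mucl1 and Dapl1 are 3 genes that separated ACKR2-/- from WT small peritoneal macrophages (SPMs), and their levels were followed in every sorted sample of the study. They were chosen by their SPM counts, as genes away from chromosome 1 that keep the genotypes apart, and make up 3 of the 61461 genes listed over all count tables. Because the SPM values chose them, their difference between genotypes in SPMs is given here as a description with no test, and tests were run only in the other cell types. Gdf3 was higher in ACKR2-/- SPMs than in WT SPMs by 6.70-fold, whereas Mucl1 was lower by 12.2-fold and Dapl1 by 3.09-fold.

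RNA was sequenced from 26 samples of sorted cells of naive female mice. The WT mice were C57BL/6J and bought from a supplier, and the ACKR2-/- mice, which lack the atypical chemokine receptor ACKR2 in every tissue, were bred in-house, so the genotypes also differ in where they were bred. The methods give an age of 8 to 10 weeks unless stated otherwise. SPMs from peritoneal lavage and monocytes from bone marrow had 4 samples per genotype, each pooled from 5 mice, and MHCII negative lung macrophages had 5 samples per genotype, for which no source used here states how many mice went into a sample. Monocytes were sorted as CD11b+ Ly6C+ cells without Ly6G, SPMs as F4/80 mid MHCII+ cells, and lung macrophages as CD11b+ F4/80+ cells without SiglecF, Ly6C or MHCII.

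Gdf3 encodes a secreted ligand of the TGF-beta superfamily related to nodal. It signals through activin type receptors with a Cripto family coreceptor and SMAD2 and SMAD3, it can also bind and block BMPs, and it is made by macrophages of fat and of regenerating muscle, where PPARG and RXR control it. Mucl1 encodes a small secreted mucin-like protein, which in the mouse is a little studied gene that RefSeq lists as a transcribed pseudogene and the deposited tables list as protein coding. Dapl1 encodes a small relative of Dap, an inhibitor of autophagy that acts under mTOR, and is known from epithelia and from naive and memory T cells. SPMs are the monocyte-derived MHCII+ macrophages of the peritoneal cavity, while large peritoneal macrophages are the resident population that depends on the factor GATA6.

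The 3 genes lie on different chromosomes of the mm10 (GRCm38) build, and none is on chromosome 9, where Ackr2 is. Gdf3 (ENSMUSG00000030117) lies on the minus strand of chromosome 6 from 122605403 to 122610087, Mucl1 (ENSMUSG00000060311) on the minus strand of chromosome 15 from 103751919 to 103755469, and Dapl1 (ENSMUSG00000026989) on the plus strand of chromosome 2 from 59484653 to 59505020. Their summed exon lengths are 2423, 797 and 679 bp. The RefSeq promoter table held 1 of the 3, that of Dapl1. Its 250 bases before the start, at chr2:59484403-59484652 of GRCm38.p6 on the plus strand, are therefore the ones shown. Matches to CAGAC, a SMAD binding motif, and to the TATA box TATAAA are in capitals.

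Dapl1: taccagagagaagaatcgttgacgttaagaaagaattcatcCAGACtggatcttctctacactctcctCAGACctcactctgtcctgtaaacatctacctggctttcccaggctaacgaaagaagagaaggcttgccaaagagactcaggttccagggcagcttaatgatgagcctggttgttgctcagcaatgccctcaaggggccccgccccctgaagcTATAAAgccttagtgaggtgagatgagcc

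CAGAC was found on the plus strand from 209 to 205 and from 182 to 178 bases before the start, and TATAAA from 29 to 24 bases before it. Searched on both strands, CAGAC occurred in 42.1% and TATAAA in 12.97% of 27025 promoter stretches of the same length. The letters GAGGAA, bound by PU.1, did not occur in this stretch and were held by 23.1% of the stretches. Nor did AGGTCA, bound by nuclear receptors (held by 13.8%), or the AP-1 site TGACTCA (held by 4.43%).

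Values are CPM, read counts scaled to the total on the tested genes with TMM factors. Between 12781144 and 29474570 reads per WT SPM sample were counted on genes, and between 27021524 and 35400034 per ACKR2-/- SPM sample. The range was 15450670 to 19218213 in monocytes and 19950019 to 29770252 in lung macrophages. Ackr2 had 5 to 9 reads in each WT SPM sample and 0 in each ACKR2-/- SPM sample, and at most 2 reads in monocytes. In lung macrophages it was at 7.75 to 22.1 CPM in 4 WT samples, at 0.282 to 1.64 CPM in the ACKR2-/- samples, and at 0 in the library labelled WT replicate 5, which goes against its label. That library also had the least Sftpc, an epithelial marker named after its values were seen, of the WT lung samples. It was at 206.7 CPM there, at 3429 to 8610 CPM in the other WT and at 181.3 to 10145 CPM in the ACKR2-/- lung samples. The SPM libraries carried MHCII genes such as H2-Ab1 (24425 to 37813 CPM), and Gata6, the defining factor of large peritoneal macrophages, was at 0.929 to 3.72 CPM. Other genes of the large peritoneal macrophage list were abundant, among them Lyz1 (means of 25763 CPM in WT and 22121 CPM in ACKR2-/-), Alox15 (291.0 and 537.9 CPM), Icam2 (237.2 and 533.8 CPM) and Prg4 (148.0 and 230.5 CPM). In the ACKR2-/- SPM replicates 1 and 4 the monocyte genes Ly6c2 and Plac8 stood apart: Ly6c2 was at 380.3 and 706.7 CPM there, against 16.8 to 56.6 CPM in the other 6 SPM samples. Ccr2, also on the monocyte list, went the other way, at 367.1 and 341.6 CPM there against 442.9 to 1815 CPM. The SPM and lung results below are therefore also given without libraries that stand apart.

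**Figure D1:**
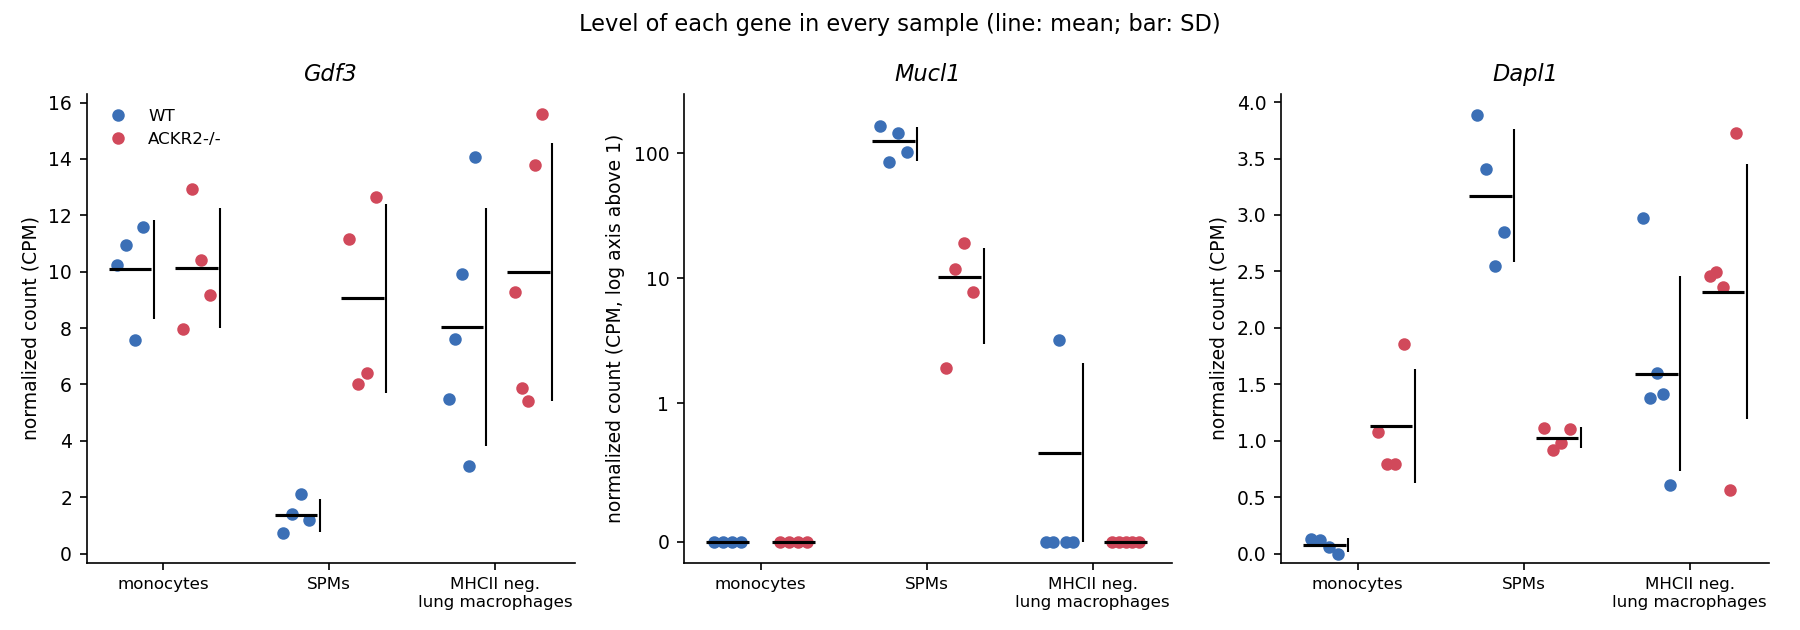
Normalized counts (CPM) of Gdf3, Mucl1 and Dapl1 in every sample of WT (blue) and ACKR2-/- (red) monocytes, SPMs and MHCII negative lung macrophages; lines are means and bars are SD (n = 4 for monocytes and SPMs, n = 5 for lung), and the Mucl1 axis is logarithmic above 1 CPM. In SPMs the genotypes are apart for all 3 genes, WT SPMs are the lowest group for Gdf3, and Mucl1 is at 0 outside SPMs but for 1 WT lung sample.

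Gdf3 was low in WT SPMs and high in every other group. Its level in the 4 WT SPM samples was 0.719, 1.39, 2.11 and 1.18 CPM, from 15 to 32 reads. In the 4 ACKR2-/- SPM samples it was 11.2, 6.01, 6.39 and 12.7 CPM, from 164 to 470 reads. The lowest ACKR2-/- sample was thus above the highest WT sample, and the group means were 1.35 ± 0.579 CPM (SD, n = 4) and 9.05 ± 3.35 CPM (SD, n = 4). The log2 fold change was 2.78, with a standard error (SE) of 0.39. Of the 12997 genes tested in SPMs 1.80% were higher in ACKR2-/- samples without overlap and 0.0308% were called higher, a call asking for both an adjusted p under 0.05 and a log2 fold change beyond 0.5 in size. Gdf3 was chosen for this pattern, so nothing is read from those shares.

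The Gdf3 level in ACKR2-/- SPMs was highest in replicates 1 and 4, the libraries with the most Ly6c2. Bone marrow monocytes, in which Gdf3 was at 7.57 to 12.9 CPM, had 3270 to 6461 CPM of Ly6c2. Plac8 followed the same order, with 1073 and 1184 CPM in ACKR2-/- replicates 1 and 4 against 44.6 to 248.6 CPM in the other SPM samples, as did Icam2, a gene of large peritoneal macrophages, with 764.5 and 811.4 CPM against 97.6 to 338.4 CPM. Ly6c2, Plac8, Ccr2 and Icam2 were picked for naming after their values were seen. The whole list of 10 monocyte markers summed to 1787 to 5222 CPM in WT and 1529 to 3164 CPM in ACKR2-/- SPMs. Of its 9 tested genes 4 had a positive, 5 a negative and 0 a called fold change. The list of 10 large peritoneal macrophage markers summed to 12812 to 41054 CPM in WT and 12234 to 36870 CPM in ACKR2-/- SPMs, a sum made up mostly of Lyz1. Of its 10 tested genes 7 had a positive and 0 a called fold change (median 0.41 on the log2 scale). The NK cell markers summed to 41.2 to 136.5 CPM in WT and 92.1 to 198.2 CPM in ACKR2-/- SPMs, again highest in ACKR2-/- replicates 1 and 4, and all 7 that could be tested had a positive and 0 a called fold change (median 1.33). ACKR2-/- replicates 2 and 3, with Ly6c2 at 32.3 and 23.9 CPM, within the WT range, had 6.01 and 6.39 CPM of Gdf3. The part of monocyte, large peritoneal macrophage and NK cell RNA in the differences of the 3 genes was not tested. With replicates 1 and 4 left out, the Gdf3 log2 fold change was 2.22 (SE 0.43), those of Mucl1 and Dapl1 moved by less than 1 SD, and 2 genes were called in each direction in place of 4 and 2.

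Outside SPMs, Gdf3 overlapped between genotypes and was not called. In monocytes its level was 10.2, 10.9, 7.57 and 11.6 CPM in WT and 7.96, 12.9, 10.4 and 9.19 CPM in ACKR2-/- samples. The genotypes overlapped, the log2 fold change being 0.01 (SE 0.19, edgeR quasi-likelihood test, Benjamini-Hochberg adjusted p = 0.989) and an exact two-sided permutation p of 1.00. In lung macrophages the level was 5.48, 7.62, 9.92, 3.10 and 14.1 CPM in WT and 9.29, 5.86, 5.42, 13.8 and 15.6 CPM in ACKR2-/- samples. Here too the genotypes overlapped, the log2 fold change being 0.31 (SE 0.43, edgeR adjusted p = 1.00) and an exact two-sided permutation p of 0.524, or 0.873 adjusted over the 5 permutation tests run. Without the WT replicate 3, which held many MHCII transcripts, and the library labelled WT 5, the lung log2 fold change was 0.94 and was not called. The difference of the effects, monocytes minus lung, was -0.33 (SE 0.54, edgeR adjusted p = 1.00), and -0.65 without the lung library labelled WT 5, again without a call.

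Ordered by mean level, Gdf3 was at 10.1 CPM in both genotypes of monocytes, at 9.99 CPM in ACKR2-/- lung macrophages, at 9.05 CPM in ACKR2-/- SPMs and at 8.03 CPM in WT lung macrophages. Each of these groups overlapped the next. WT SPMs, at 1.35 CPM, came last and stood below the lowest WT lung sample. No test was made across cell types, since cell type goes with the sort and the count table. The samples are bulk, so fewer cells with a transcript and less transcript per cell cannot be told apart.

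**Figure D2:**
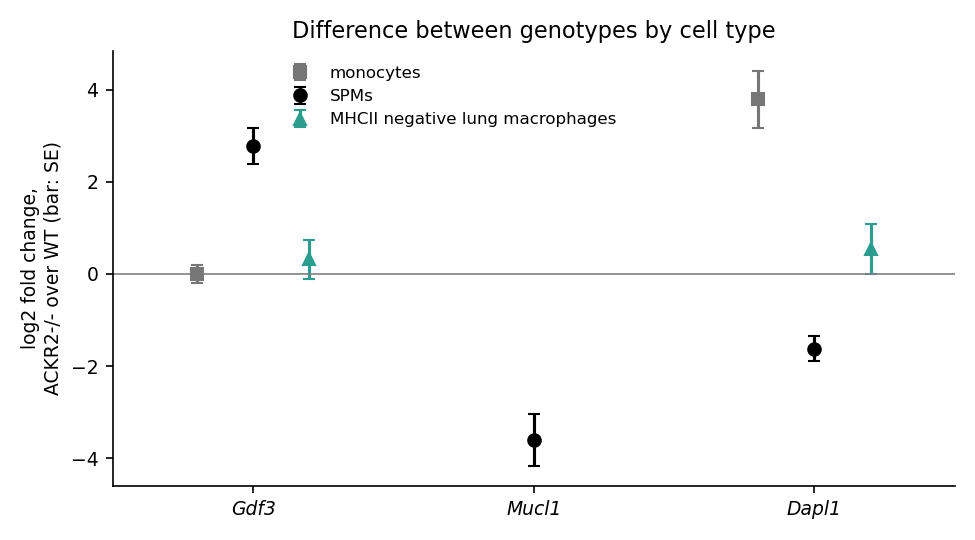
Log2 fold change of each gene (ACKR2-/- over WT) by cell type, with its standard error as bars; n = 4 per genotype for monocytes and SPMs and n = 5 for lung. Gdf3 is at 2.78 in SPMs, 0.01 in monocytes and 0.31 in lung macrophages. Mucl1 could be fitted in SPMs alone at -3.60, and Dapl1 is at -1.62 in SPMs and 3.797 in monocytes.

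Mucl1 was counted almost only in the SPM samples. Its level in WT SPMs was 165.6, 84.9, 144.4 and 102.3 CPM, from 1642 to 3456 reads, a mean of 124.3 ± 37.2 CPM (SD, n = 4). In ACKR2-/- SPMs it was 1.92, 11.9, 19.1 and 7.81 CPM, from 50 to 743 reads, a mean of 10.2 ± 7.24 CPM (SD, n = 4). The genotypes did not overlap, and the ACKR2-/- samples spread widely among themselves, the highest being 9.99 times the lowest, against 1.95 times in WT. The log2 fold change was -3.60 (SE 0.56). In SPMs 1.60% of genes were lower without overlap and 0.0154% were called lower, from which nothing is read for Mucl1, as its SPM values chose it. The SPM samples are bulk and also held transcripts of other cells. Mast cell or basophil markers summed to 604.3 to 7084 CPM in WT and 2206 to 4997 CPM in ACKR2-/- SPMs. B cell markers summed to 300.2 to 947.2 CPM in WT and 555.5 to 820.6 CPM in ACKR2-/- SPMs. The part of these cells in the Mucl1 level was not tested.

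Retnla was lower in ACKR2-/- SPMs, as was Mucl1. It encodes the secreted protein RELM-alpha of alternatively activated macrophages and is among the 10 SPM and MHCII+ macrophage markers. Retnla was at 85735, 69468, 66434 and 59526 CPM in WT and at 23057, 55410, 36255 and 19024 CPM in ACKR2-/- SPMs. Its genotypes did not overlap, but it was not called (log2 fold change -1.07, SE 0.36, edgeR adjusted p = 0.788). The 2 ACKR2-/- samples with the least Retnla, replicates 1 and 4, had the least Mucl1. Beyond this the order within a genotype was not kept. In ACKR2-/- SPMs replicate 2 had the most Retnla and replicate 3 the most Mucl1. In WT SPMs replicate 4 had the least Retnla and replicate 2 the least Mucl1. Ccr2, of the same list, also did not overlap between genotypes (log2 fold change -1.19, SE 0.36, edgeR adjusted p = 0.788). The 10 SPM markers summed to 175520 to 190630 CPM in WT and 110690 to 163770 CPM in ACKR2-/- SPMs, all 10 had a negative log2 fold change (median -0.40, against -0.05 over all tested genes) and 0 were called. The part of these markers in the Mucl1 difference was not tested. The MHCII genes of the list differed less than Retnla, H2-Ab1 having a log2 fold change of -0.19 and Cd74 one of -0.14.

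No Mucl1 read was counted in any of the 8 monocyte samples. A count of 0 allows up to 3 reads, which came to between 0.158 and 0.195 CPM per monocyte library and covers counting error only. In lung macrophages Mucl1 was at 0 in 9 of 10 samples, the exception being WT replicate 3 with 62 reads, or 3.20 CPM (95% Poisson interval 2.46 to 4.11). With 1 sample above 0 the permutation test of the lung genotypes, 1 of the 5 run, can give no other p than 1 and says nothing, and the gene was too low for the edgeR test there. That 1 library also stood apart in MHCII genes, with 21242 CPM of H2-Ab1 against 253.2 to 1708 CPM in the other lung samples, which goes against the MHCII negative gate. It had 266.2 CPM of Retnla against 1.25 to 38.6 CPM, 1135 CPM of Mgl2, named after its values were seen, against 6.3 to 62.8 CPM, and its 10 SPM and MHCII+ macrophage markers summed to 85930 CPM. So the sole sample with Mucl1 outside the peritoneum was the one with the most of these MHCII+ macrophage transcripts, and the part of those transcripts in its Mucl1 value was not tested.

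**Figure D3:**
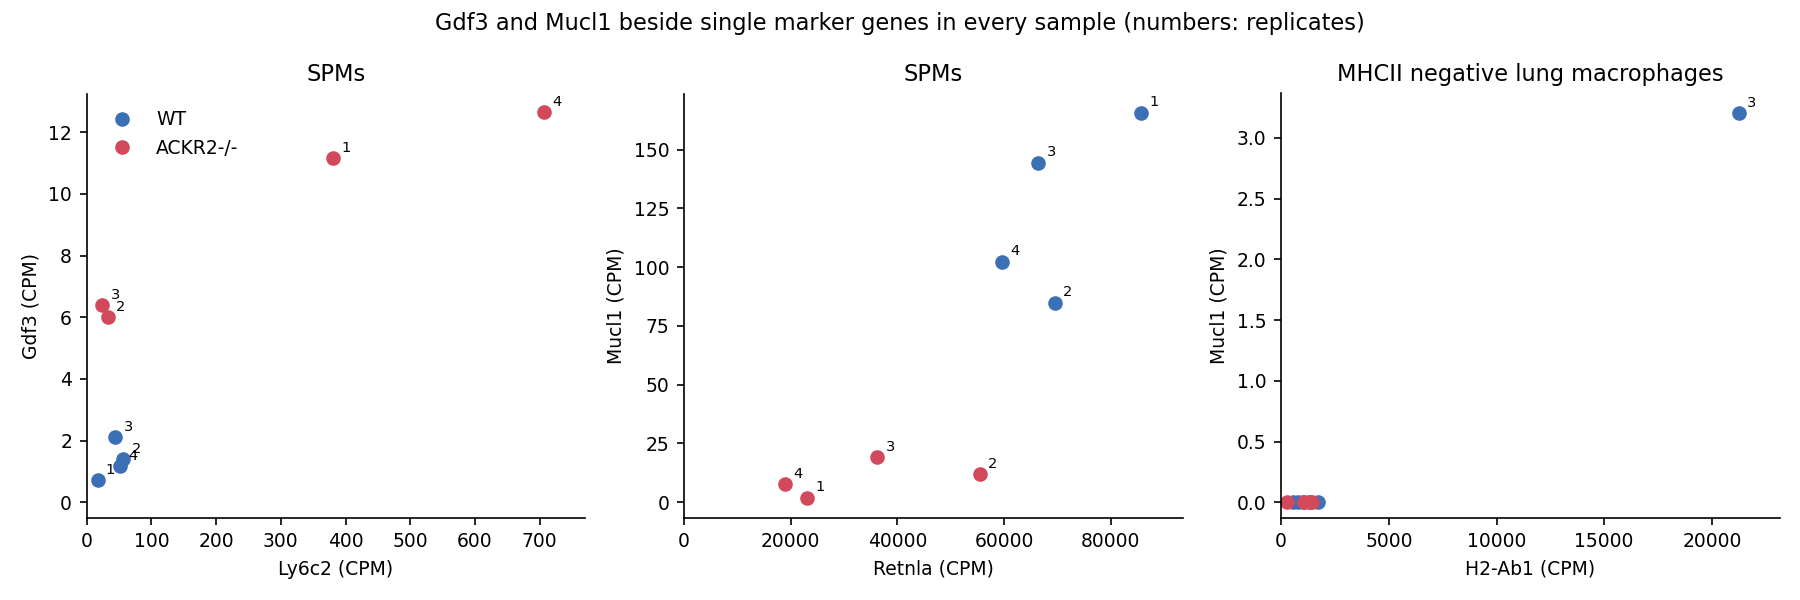
Each point is a sample (WT blue, ACKR2-/- red, numbered by replicate), with the level of Gdf3 or Mucl1 (CPM) against that of a marker gene (CPM): Ly6c2 and Retnla in SPMs and H2-Ab1 in lung macrophages. ACKR2-/- SPM replicates 1 and 4 have the most Ly6c2 and Gdf3 while replicates 2 and 3 lie above WT in Gdf3 at a WT level of Ly6c2, and the lung sample with 3.20 CPM of Mucl1 has 21242 CPM of H2-Ab1.

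Dapl1 was lower in ACKR2-/- than in WT SPMs and, in the opposite direction, higher in ACKR2-/- than in WT monocytes. In SPMs its level was 3.88, 3.41, 2.55 and 2.85 CPM in WT, from 29 to 81 reads, and 1.11, 0.917, 0.979 and 1.104 CPM in ACKR2-/- samples, from 25 to 41 reads. The genotypes did not overlap, with means of 3.17 ± 0.592 CPM (SD, n = 4) and 1.03 ± 0.0958 CPM (SD, n = 4). The log2 fold change was -1.62 (SE 0.27), and the ACKR2-/- samples lay closer together than those of any other group with reads of the 3 genes, the highest being 1.21 times the lowest. Read counts this low leave wide counting intervals: the 25 reads of ACKR2-/- replicate 2 gave 0.593 to 1.35 CPM (95% Poisson). All 4 ACKR2-/- values lay within that interval, so nothing is read from how close together they lay.

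In monocytes Dapl1 was at 0.130, 0.124, 0.0556 and 0 CPM in WT, from 2, 2, 1 and 0 reads, and at 1.08, 0.797, 0.789 and 1.86 CPM in ACKR2-/- samples, from 20, 14, 15 and 35 reads. Every ACKR2-/- sample was above every WT sample. The log2 fold change was 3.797 (SE 0.62, edgeR quasi-likelihood test, Benjamini-Hochberg adjusted p = 0.011). With no filter on low counts the edgeR adjusted p was 0.00272, and the exact two-sided permutation p, which uses no filter, was 0.0286, the smallest that 4 against 4 samples allow, or 0.143 adjusted over the 5 tests. Dapl1 passed the filter on low counts through its ACKR2-/- samples alone, so its call after that filter is no support, and the WT level rests on 5 reads in all. Of 13246 genes tested in monocytes 0.913% were called higher and 4.94% were higher without overlap, from which nothing is read for Dapl1. Without WT replicate 3 the adjusted p was 0.0512 (log2 fold change 3.67).

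T cell transcripts moved with Dapl1 in monocytes. The 10 T cell markers summed to 4.36 to 6.28 CPM in WT and 65.8 to 119.2 CPM in ACKR2-/- monocytes, and all 8 that could be tested were called higher in ACKR2-/- samples, with a median log2 fold change of 4.35 against 0.00 over all tested genes. Among them Cd3d, a subunit of the T cell receptor complex, had a log2 fold change of 4.38 (edgeR adjusted p = 3.57e-06). ACKR2-/- replicate 4 had the most of both, with 119.2 CPM of T cell markers and 1.86 CPM of Dapl1. The part of T cell RNA in the monocyte difference of Dapl1 was not tested. Of the other marker lists, Klre1 (1 of 3 tested NK cell genes) and Ccr7 (1 of 8 tested dendritic cell genes) were called higher. Alox15 (1 of 6 tested genes of the large peritoneal macrophage list) was called lower. Of all genes tested in monocytes 0.913% were called higher and 0.355% lower. The summed NK cell markers averaged 870.9 CPM in WT and 812.7 CPM in ACKR2-/- monocytes, and the dendritic cell markers 363.7 and 276.55 CPM. These calls are not read as more or fewer cells of a type.

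In lung macrophages Dapl1 was at 2.97, 1.38, 1.60, 1.41 and 0.604 CPM in WT and 2.46, 2.49, 2.36, 0.563 and 3.72 CPM in ACKR2-/- samples. The genotypes overlapped, the log2 fold change being 0.54 (SE 0.54, edgeR adjusted p = 1.00) and an exact two-sided permutation p of 0.278, or 0.694 adjusted over the 5 tests. Without WT replicate 3 and the library labelled WT 5 the log2 fold change was 0.30 (SE 0.59), again without a call. Of 16824 genes tested in lung, 0% were called by edgeR and 2.97% had an unadjusted p under 0.05, while DESeq2 called 16 higher and 4 lower. The 5 lung samples with the lowest T cell sums (82.2 to 220.4 CPM) were those with the lowest Dapl1 (0.563 to 1.60 CPM), and the other 5 had 283.5 to 515.6 CPM of T cell markers and 2.36 to 3.72 CPM of Dapl1. Within the latter 5 the order was not kept, as ACKR2-/- replicate 1 had the highest T cell sum and 2.46 CPM of Dapl1.

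In SPMs the T cell markers summed to 90.7 to 171.9 CPM in WT and 118.9 to 133.7 CPM in ACKR2-/- samples, with 0 of 10 called and a median log2 fold change of -0.10, while Dapl1 did not overlap between genotypes. Written as a percent of the summed T cell markers, Dapl1 was at 1.48% to 4.28% in WT SPMs and 0.771% to 0.897% in ACKR2-/- SPMs. It was at 0.478% to 0.948% in the lung samples, at 0.828% to 1.56% in ACKR2-/- monocytes and, from 5 reads in all, at 0% to 2.99% in WT monocytes, which overlapped WT SPMs. The ratio was formed after the values were seen and uses the SPM values that chose the gene, and the part of T cell RNA in the SPM difference was not tested.

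**Figure D4:**
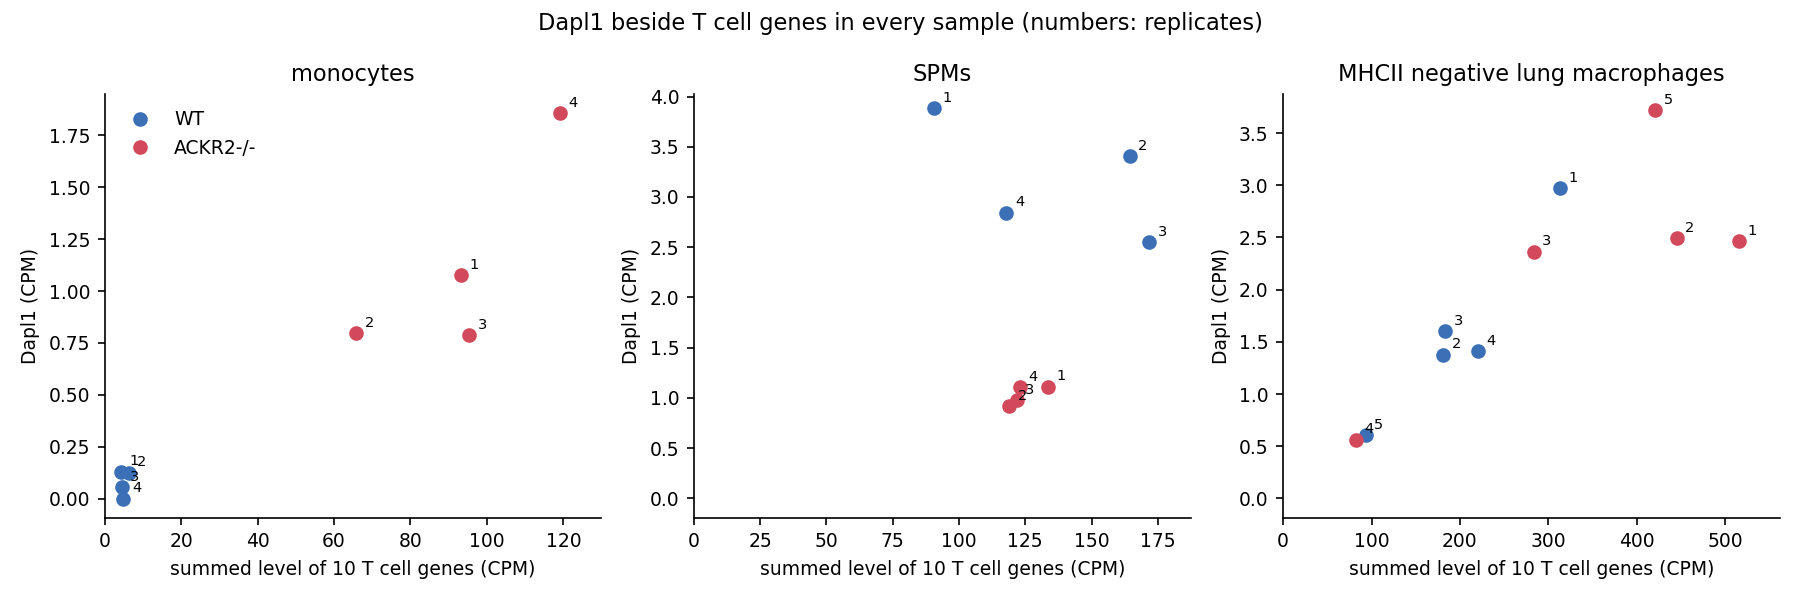
Level of Dapl1 (CPM) against the summed level of 10 T cell genes (CPM) in every sample, by cell type (WT blue, ACKR2-/- red, numbered by replicate). The 4 ACKR2-/- monocyte samples exceed the 4 WT samples on both axes, the 5 lung samples with the lowest T cell sums have the lowest Dapl1, and in SPMs the T cell sums overlap and WT samples (2.55 to 3.88 CPM) lie above ACKR2-/- samples (0.917 to 1.11 CPM).

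By mean level the order for Dapl1 was WT SPMs (3.17 CPM), ACKR2-/- lung macrophages (2.32 CPM), WT lung macrophages (1.59 CPM), ACKR2-/- monocytes (1.13 CPM) and ACKR2-/- SPMs (1.03 CPM), each overlapping the next, and then WT monocytes (0.0776 CPM), which stood below. The effect in monocytes minus that in lung macrophages was 3.25 (SE 0.77, edgeR adjusted p = 0.0935), which did not pass the threshold. Without the library labelled WT 5 of lung, whose Ackr2 count goes against its label, the value was 3.46 and passed (edgeR adjusted p = 0.0409). In the other 27 alternatives run it did not pass. The main test covered 17792 genes, of which 0.152% passed.

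Per kb of exon, Mucl1 was the most abundant of the 3 in SPMs of both genotypes and the other two changed places. In WT SPMs the mean levels were 156.0 CPM per kb for Mucl1, 4.67 for Dapl1 and 0.558 for Gdf3. In ACKR2-/- SPMs they were 12.8 CPM per kb for Mucl1, 3.74 for Gdf3 and 1.51 for Dapl1.

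None of the tested genes around each locus was called. Of 39 genes annotated within 500 kb of Gdf3, 22 could be tested in SPMs and 0 were called, with a median log2 fold change of -0.06. The nearest with a name were Apobec1, an RNA editing cytidine deaminase 2.96 kb before it (log2 fold change 0.25, SE 0.19), and Dppa3, 16.3 kb after it (-0.37, SE 0.31). Around Mucl1 7 of 24 genes could be tested and 0 were called, the nearest being Gm9108 at 163.6 kb before it (0.56, SE 0.57), and none after it could be tested. Around Dapl1 4 of 11 could be tested and 0 were called, the nearest being Gm13552, 59.2 kb after it (0.30, SE 0.35), and Pkp4, a plakophilin family gene of cell junctions 129.4 kb before it (-0.81, SE 0.38). The smallest adjusted p among all these neighbours was 0.788 (edgeR), and 0.0462% of all genes tested in SPMs were called in either direction.

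**Figure D5:**
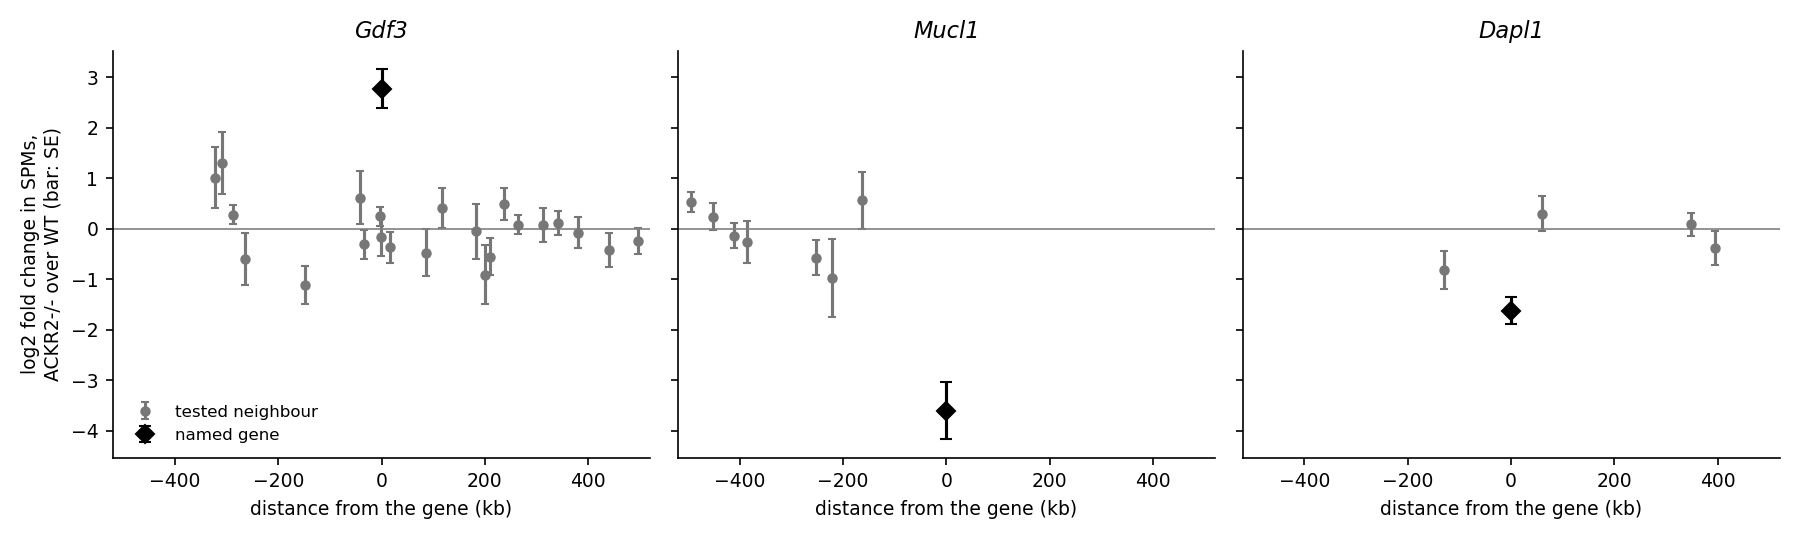
Log2 fold change in SPMs (ACKR2-/- over WT, bars are standard errors, n = 4 per genotype) of every tested gene within 500 kb of Gdf3, Mucl1 and Dapl1 (grey) and of the gene itself (black), against the distance in kb. None of the 22, 7 and 4 neighbours was called, and their log2 fold changes lie between -1.11 and 1.31.

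The genes that act with Gdf3 were looked at by role. In SPMs 0.0462% of all tested genes were called, and the median log2 fold change over all tested genes was -0.05. With so few calls, 0 called genes in any list here or above is not read as a result. Of the other nodal, activin and GDF ligands, Tgfb1 (7.19 ± 3.65 CPM in WT and 5.93 ± 1.85 CPM in ACKR2-/- SPMs, SD, n = 4) and Tgfb2 could be tested in SPMs and 0 were called. Gdf1, the nearest relative of Gdf3, had 0 reads in every sample. Of 9 receptors and coreceptors 6 could be tested and 0 were called (median log2 fold change -0.26), Tgfbr2, a type II receptor of TGF-beta, having the highest level at 13.7 ± 7.47 CPM in WT and 13.3 ± 2.59 CPM in ACKR2-/- SPMs. The activin receptors Acvr1b and Acvr2b were near 1 CPM, and the coreceptors Tdgf1 (Cripto) and Cfc1 had 0 reads in all SPM and monocyte samples. Of the antagonists 4 could be tested and 0 were called. Among them Lefty1, an extracellular inhibitor of nodal, was at 0.452 ± 0.188 CPM in WT and 0.904 ± 0.369 CPM in ACKR2-/- SPMs (log2 fold change 1.03, SE 0.47, edgeR adjusted p = 0.788).

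All 4 tested SMAD genes of the activin branch went without a call, with log2 fold changes from -0.26 for Smad4 to 0.21 for Smad3. Of 8 tested BMP branch genes 0 were called in SPMs, where 0.0462% of all tested genes were. The target gene Id2 was at 632.4 ± 15.2 CPM in WT and 886.0 ± 212.9 CPM in ACKR2-/- SPMs (log2 fold change 0.49, SE 0.21, edgeR adjusted p = 0.788). In monocytes 1 of 7 tested BMP branch genes was called, Id3, another BMP target. It was at 1.25 ± 0.561 CPM in WT and 3.97 ± 0.365 CPM in ACKR2-/- samples (log2 fold change 1.65, SE 0.31, edgeR adjusted p = 0.0283). Of the 7 genes 4 had a positive and 3 a negative log2 fold change (median 0.03), and 0.913% of all genes tested in monocytes were called higher. T cell markers were also higher in these ACKR2-/- samples, and their part in the Id3 difference was not tested. Of 11 tested PPARG and RXR target genes 0 were called in SPMs (median log2 fold change -0.27, against -0.05 over all tested genes). Fabp5, a fatty acid binding protein, was at 53.1 ± 18.4 CPM in WT and 129.4 ± 68.9 CPM in ACKR2-/- SPMs (log2 fold change 1.28, SE 0.40, edgeR adjusted p = 0.788), whereas Lpl, Plin2 and Cd36, genes of lipid uptake and storage, had log2 fold changes of -0.27, 0.24 and 0.14.

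For Mucl1, the 15 mucins and mucin-like genes held 1 other gene that could be tested in SPMs, Cd164, a mucin-like surface protein, with a log2 fold change of -0.04. Mucl2, the relative nearest in name, had 0 or 1 read in each SPM sample and 0 reads in every other sample. For Dapl1, Dap was at 70.3 to 110.2 CPM in WT and 75.1 to 118.9 CPM in ACKR2-/- SPMs (log2 fold change 0.06, SE 0.21). Of the 16 Dap and autophagy initiation genes tested besides Dapl1 0 were called in SPMs, with a median log2 fold change of 0.03. Over all genes tested in SPMs 0.0462% were called and the median was -0.05, so nothing is read from the lack of calls. The 4 most abundant besides Dap, Map1lc3b, Gabarap, Sqstm1 and Atg101, had log2 fold changes from -0.10 to 0.19. In lung macrophages 0 genes of any of these lists were called, as were 0% of all genes tested there.

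The genes whose pattern over the 8 SPM samples was most like each member were found by Pearson's r of log2(CPM + 0.5), which the genotype difference itself drives and which has no test. For Gdf3 they were Oscp1 (r = 0.956), Fdps (0.955), an enzyme of isoprenoid synthesis, and Ppfia4 (0.952), a liprin. Oscp1 was at 0.728 CPM in WT and 2.62 CPM in ACKR2-/- SPMs on average. Fdps was at 0.278 CPM in WT and 0.889 CPM in ACKR2-/- SPMs. Its WT level is near the floor of 3 reads, 0.111 to 0.264 CPM in the WT SPM samples. For Mucl1 they were Gm13431 (0.945), the histone gene Hist1h4n (0.944) and Cd209g (0.931), a C-type lectin of the DC-SIGN family at 5.62 CPM in WT and 1.29 CPM in ACKR2-/- SPMs. For Dapl1 they were Lyve1 (0.940), a hyaluronan receptor of tissue macrophages at 16.8 CPM in WT and 6.22 CPM in ACKR2-/- SPMs, then Gm39469 (0.938), and Chil1 (0.936), a chitinase-like protein at 79.6 CPM in WT and 0.630 CPM in ACKR2-/- SPMs. Ppfia4 and Chil1 lie on chromosome 1, and none of the 9 shares a chromosome with its own member.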

How the data were processed

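The authors deposited raw read counts per gene, without normalization, in 1 table per cell type (HISAT2 2.0.5, featureCounts 1.5.0-p3 and mm10 in the submitters' processing notes), after SMARTer amplification of poly-A RNA and paired-end sequencing. Summary lines of the lung table, which name no gene, took up to 58.3% of a sample's counts and were left out. Genotypes were compared per cell type in R 4.3.3 with edgeR 4.0.16 (filterByExpr, TMM, quasi-likelihood test, Benjamini-Hochberg), calling genes at adjusted p under 0.05 and absolute log2 fold change over 0.5. On simulated data with 200 changed genes this recovered 88.5% in the monocyte comparison (13246 genes), 77.0% in SPMs (12997) and 58.5% in lung (16824). False calls came to 4.84%, 3.14% and 6.4% in the same order. These rates hold for the fold changes put into those data, and recovery of smaller ones was not tested. The effects of monocytes and lung were compared in 1 fit of all 26 samples. Single values were tested with exact permutation tests (scipy 1.17.1). Intervals and floors cover counting error only, because PCR copies cannot be told apart.

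The members and lists were chosen with earlier results of these data known. Named genes are the members, Ackr2, the nearest relatives, the 3 genes most like each member, the called or else nearest tested neighbours within 500 kb, and the called or 4 most abundant genes of each list, besides Gata6, Acvr1b, Tdgf1, Cfc1 and others marked in the text, which were named after their values were seen. DESeq2 1.42.0, RLE factors, other filters, a robust fit, a replicate block and samples left out were the alternatives. Over 44 pairs of replicates 0 were identical (smallest chi-square per degree of freedom 7.80). Overlapping or near-identical genes may share reads. Where samples are not stated to come from separate mice, p-values measure only the spread between these samples, which may be technical.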

Additional observations from a re-analysis of the deposited data

Results flagged for a closer look

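Mucl1 in WT MHCII negative lung macrophages was set apart by 1 sample far from the other 4 of its group. WT replicate 3 had 3.20 CPM and the others 0. With the others at 0, any sample with a read would have been set apart in this way. This library also held the most MHCII transcripts.

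Dapl1 differed between cell types in the direction of its genotype difference. Every ACKR2-/- monocyte sample lay above every WT sample and every ACKR2-/- SPM sample below every WT sample, and the log2 fold change in monocytes minus that in SPMs was 5.42. This difference was not tested, since the SPM values chose the gene.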

How the results depend on the processing

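In SPMs each of the 3 genes kept its direction under every alternative run. With 1 sample left out, the log2 fold change ranged from 2.57 to 3.04 for Gdf3, from -4.11 to -3.27 for Mucl1 and from -1.71 to -1.52 for Dapl1. With both ACKR2-/- replicates 1 and 4 left out, chosen after the data were seen, Gdf3 moved to 2.22. Gdf3 in monocytes lay at 0 within its error and turned to -0.11 without WT replicate 3 and to -0.12 without ACKR2-/- replicate 2 (range -0.12 to 0.10). Dapl1 in monocytes was called wherever it was tested except without WT replicate 3 (adjusted p from 0.000349 with DESeq2 to 0.0512 with edgeR) and was too low for the filter at 1 CPM. All of these fits but the one with no filter used the filter that Dapl1 passed through its ACKR2-/- samples alone. Their calls are therefore no support. The Dapl1 effect in monocytes minus that in lung passed the threshold without the library labelled WT 5 of lung (3.46, edgeR adjusted p = 0.0409). It did not pass in the other 27 alternatives.

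The counts of called genes varied more. Calls higher and lower in ACKR2-/- were 121 and 47 in monocytes, 4 and 2 in SPMs and 0 and 0 in lung. DESeq2 called 312 and 182 in monocytes, 19 and 14 in SPMs and 16 and 4 in lung. With no filter on low counts the numbers were 239 and 107 in monocytes and 41 and 11 in SPMs. The filter at 1 CPM, the robust fit and leaving out ACKR2-/- replicates 1 and 4 each gave 2 higher calls in SPMs. With 1 sample left out the range was 70 to 288 higher and 5 to 125 lower in monocytes and 2 to 4 higher and 1 to 4 lower in SPMs. The difference of effects passed for 27 genes, for 6 with the monocyte and lung samples alone, and for 13, 14 and 15 without WT monocyte replicate 3, 1 and 2, and 53 without the lung library labelled WT 5. The causes were not tested.

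Same-numbered samples of the genotypes mostly did not deviate together (correlations from -0.132 to 0.349 in monocytes, -0.111 to 0.00321 in SPMs and -0.095 to 0.675 in lung). The exceptions, each the best match of the other, were number 2 in monocytes (0.349) and number 1 in lung (0.675). The numbers were not taken as pairs in the main fits. With the replicate block 109 and 77 genes were called in monocytes and 3 and 3 in SPMs, and Dapl1 in monocytes was at 3.74. Dapl1 in monocytes, at 0 to 35 reads a sample, rests on few reads.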
